A study of Mus musculus with 18 samples.

Results

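The genes described here are 10 mouse genes of the endoplasmic reticulum (ER) stress response and the integrated stress response: Hspa5, Dnajb9, Herpud1, Xbp1, Atf4, Ddit3, Trib3, Asns, Chac1 and Sesn2. They were taken by symbol from a table of read counts with 21859 rows, measured by RNA-seq in 18 libraries of RPE, the retinal pigment epithelium, whose pigmented cells lie against the photoreceptor outer segments. All 10 passed the filter on low counts and are among the 15944 rows tested.

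The libraries form 4 groups. Young (7 libraries) and Old (4 libraries) are RPE of young and of old mice without a vector. Old-Control (3 libraries) is RPE of old mice given AAV2-tTA, an adeno-associated virus that carries the tetracycline-controlled transactivator tTA. Old-OSK (4 libraries) is RPE of old mice given AAV2-tTA;TRE-OSK, in which the TRE promoter, the target of tTA, controls the reprogramming factors Oct4 (Pou5f1), Sox2 and Klf4. Both vector groups therefore carry tTA, and no group of young mice received a vector. Ages, strain, vector doses, the times after injection and the promoter that drives tTA are not given in the sources used here. Nothing in the labels says that the libraries of a group came from separate animals, so p-values measure the spread between libraries, which may in part be technical.

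Cells answer misfolded protein in the ER through 3 sensors. IRE1 (Ern1) splices the Xbp1 transcript into the form that encodes an active transcription factor, ATF6 is cut by the proteases encoded by Mbtps1 and Mbtps2, and PERK (Eif2ak3) phosphorylates the translation factor eIF2. Other eIF2 kinases act in the same way on amino acid shortage, viral RNA or haem shortage, and all of them favour translation of ATF4, which drives genes of amino acid supply and, with CHOP (Ddit3), later stress genes. The RPE secretes protein and digests photoreceptor outer segments every day, and both tasks draw on ER folding capacity. Counts per gene show neither Xbp1 splicing nor ATF4 translation, so the levels below are those of total transcripts.

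The promoters of 4 of the 10 members hold the letters of short sequence elements through which these pathways are known to act. The ER stress response element (ERSE) and its shorter relative ERSE-II are bound by ATF6 and XBP1 together with NF-Y, and the C/EBP-ATF response element (CARE) is bound by ATF4 dimers. The letters searched, on both strands of the 250 bases before each RefSeq start, were, for ERSE, CCAAT and CCACG with any 9 bases between them, for ERSE-II, ATTGG and CCACG with any 1 base between them, for UPRE (an XBP1 element) TGACGTGG, and for CARE TGATGNAAN. Windows of 29 bases around the matches are shown 5′ to 3′ on the strand of the gene, with the match in capitals (RefSeq, GRCm38.p6).
Hspa5 ERSE: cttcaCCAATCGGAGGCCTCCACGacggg
Herpud1 ERSE-II: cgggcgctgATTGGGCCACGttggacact
Herpud1 CARE: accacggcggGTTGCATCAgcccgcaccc
Asns CARE: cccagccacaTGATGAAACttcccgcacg
Chac1 CARE: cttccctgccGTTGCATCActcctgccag

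These windows lie at chr2:34772020-34772048 (plus strand), chr8:94386368-94386396 (plus), chr8:94386306-94386334 (plus), chr6:7693214-7693242 (minus) and chr2:119351038-119351066 (plus), in the order printed. In the CARE windows of Herpud1 and Chac1 the match is on the strand opposite to the gene. The letters of at least 1 of the 4 elements were found before 4 of the 10 members and before 4.11% of the 32851 RefSeq promoters searched. ERSE was found in 0.113% of all promoters, ERSE-II in 0.0304%, UPRE in 0.563% and CARE in 3.44%. UPRE had no match before any member. The ERSE-II and CARE matches of Herpud1 do not overlap each other. Windows were placed before the RefSeq start. For Hspa5, Asns, Chac1, Ddit3, Dnajb9 and Sesn2 that start lies inside the GENCODE extent of the gene given next. The printed windows of Hspa5 and Asns lie inside that extent, and so does the whole stretch searched for Dnajb9. A match is a string of letters and not a measured binding site.

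In GENCODE M21 (GRCm38) the ER genes Hspa5, Herpud1 and Dnajb9 lie at chr2:34771970-34777547, chr8:94386438-94395377 and chr12:44205559-44210326. The transcription factor genes Xbp1, Atf4 and Ddit3 lie at chr11:5520659-5525893, chr15:80255184-80257541 and chr10:127290774-127296288. The target genes Trib3, Asns, Chac1 and Sesn2 lie at chr2:152337422-152344032, chr6:7675169-7693254, chr2:119351229-119354381 and chr4:132492032-132510501. Dnajb9, Trib3, Asns and Sesn2 are on the minus strand and the others on the plus strand.

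Depth was similar in the groups, with totals of 18104828 to 32348136 counts per library. Pou5f1 stood at 50.1 to 97.4 CPM (counts per library scaled to a common total) in the Old-OSK libraries and at no more than 3.75 CPM elsewhere, and Sox2 at 69.999 to 115 CPM against no more than 15.9 CPM. RPE markers were abundant in every library, although the summed CPM of 10 RPE markers (Rpe65, Rlbp1, Ttr, Rgr and others) was 40406 to 64909 in Young and 15888 to 29910 in Old-OSK. Old replicate 4 (27252) and Old-Control replicate 2 (20624) lay within the Old-OSK range of that sum, and also on the first principal component. Best1, an RPE chloride channel gene, averaged only 1.21 CPM in Young. Rod photoreceptor markers were present too, at summed levels of 151 to 2881 CPM in Young, 2003 to 7236 in Old, 1530 to 18310 in Old-Control and 2723 to 15288 in Old-OSK. Immune cell marker sums were 483 to 679 CPM in Young and 703 to 1189 in Old. They were 856 to 1112 CPM in Old-Control and 773 to 949 in Old-OSK. Melanocyte marker sums were 439 to 507 CPM in Young and 366 to 425 in Old. Sums for cones, Muller glia, endothelium, stroma and red blood cells overlapped between Young and Old. What part these cell types have in the differences below was not tested. Of the library names, 6 carry a letter M that the labels do not explain: Young replicates 5, 6 and 7, Old-Control replicates 2 and 3, and Old-OSK replicate 4. These 6 libraries held 4040 to 5493 Y-linked counts, as RNA of male mice would. The other 12, among them all 4 Old libraries, held 0 to 93. M thus tracks sex as read from Y-linked RNA, also where it is used as a covariate. In bulk tissue, fewer cells of a type and less RNA per cell cannot be told apart.

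Per kilobase of exon, Hspa5 was the most abundant member in Young, at 186.9 ± 52.87 CPM per kb (SD, n = 7). Dnajb9 followed at 60.35 ± 11.04, Atf4 at 49.08 ± 5.941, Xbp1 at 40.73 ± 5.901 and Herpud1 at 34.71 ± 5.04 CPM per kb. Each of these 4 neighbours in the order differed by less than their summed SDs. Ddit3 stood lower at 15.12 ± 1.727 and Sesn2 at 5.333 ± 0.7804 CPM per kb. Chac1 (3.498 ± 3.467), Trib3 (1.489 ± 0.5779) and Asns (0.5771 ± 0.3401) formed the low end in CPM per kb. In Old-OSK the order of these means differed: Dnajb9 stood at the fifth place instead of the second, at 29.04 ± 3.717 CPM per kb (n = 4), Chac1 above Sesn2, and Asns above Trib3. Values further down compare a gene only with itself and are CPM without a length correction.

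**Figure D1:**
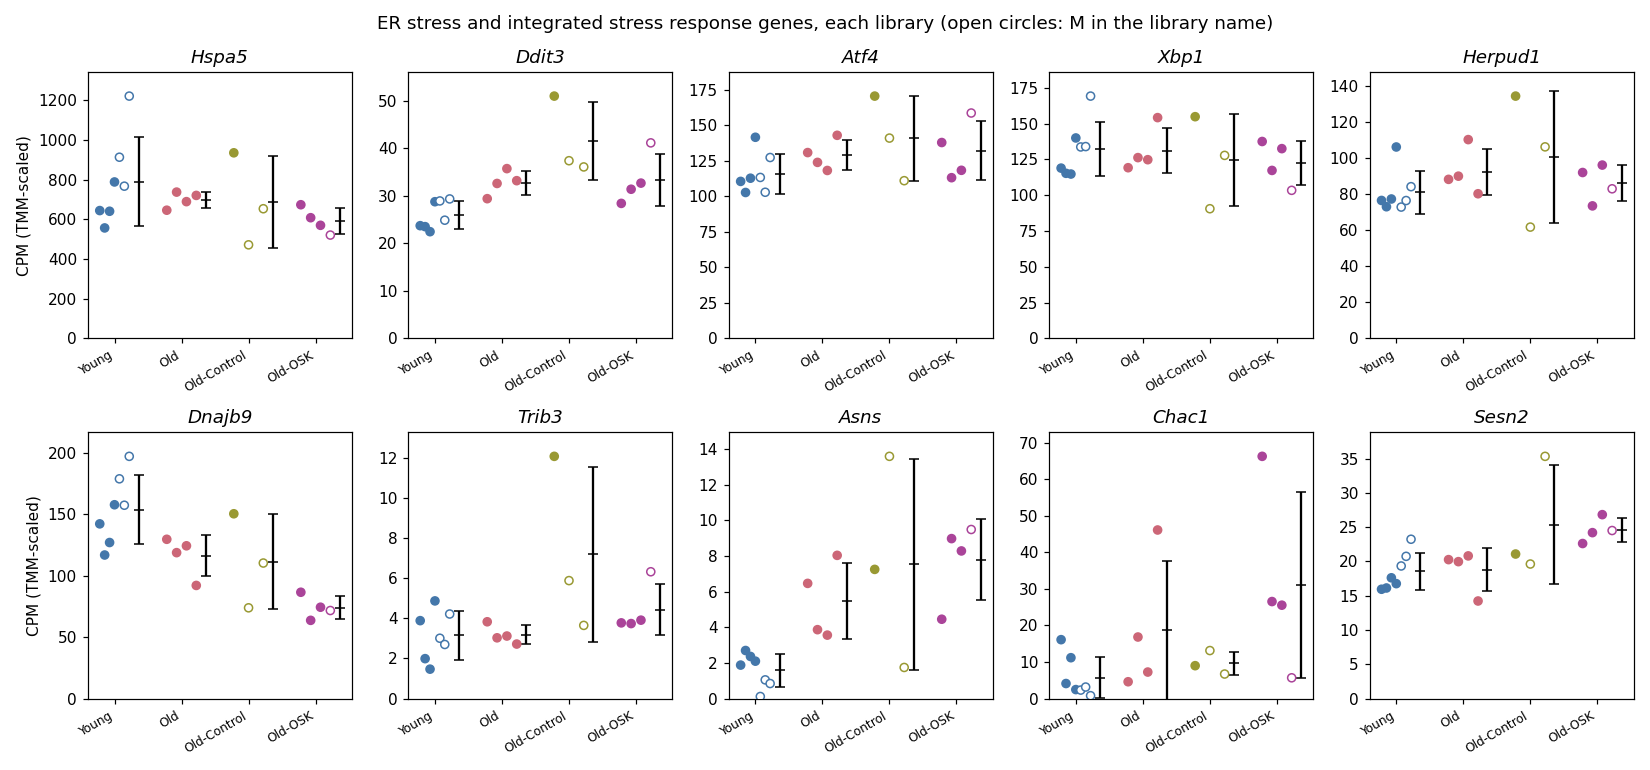
CPM of each of the 10 genes (y axis, from 0) in every library of the 4 groups (x axis), with M in the library name shown as open circles and the group mean ± SD beside the points (cut at 0 where the bar would pass it). Asns in all 4 Old libraries (3.56 to 8.04 CPM) lies above all 7 Young libraries, the mean of Dnajb9 is lowest in Old-OSK (libraries at 63.6 to 86.5 CPM), and Old-Control replicates are far apart for most genes.

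Age was examined first, by comparing Old with Young. Of the 10 genes only Asns passed the test, and it was higher in Old. Across all genes tested, 9.56% passed at an adjusted p under 0.05 in edgeR's quasi-likelihood test (5.4% higher and 4.16% lower), so 1 of 10 is close to the background. At an unadjusted p under 0.05 there were 4 members against 29% of all genes. The median log2 fold change of the members was 0.09, that of all genes -0.00.

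Hspa5 encodes BiP, the main Hsp70 chaperone of the ER and the regulator that holds the sensors inactive. Its level in Young ranged from 557 to 1222 CPM with a median of 767. In the Old libraries it was 646, 737, 689 and 721 CPM, all inside the Young range. Its log2 fold change of -0.18 had an SE of 0.20 and an adjusted p of 0.586, and among libraries without M its sign turned (0.09). Young libraries with M held 767 to 1222 CPM and those without it 557 to 789.

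Dnajb9, the ER co-chaperone ERdj4 and a target of spliced XBP1, ranged from 117 to 197 CPM in Young (median 157). The Old libraries held 129.6, 119, 124 and 92.1 CPM, the last being the only one below every Young library. The difference of -0.41 on the log2 scale (SE 0.17) did not pass (adjusted p = 0.135), and it was -0.23 among libraries without M (adjusted p = 0.340). Young libraries with M held 157 to 197 CPM of Dnajb9 and those without it 117 to 158.

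Herpud1 encodes a membrane protein of ER-associated degradation (ERAD), the route by which misfolded proteins leave the ER for the proteasome. In Young it ranged from 72.9 to 106 CPM (median 76.6). In Old it stood at 88.3, 90.04, 110.3 and 80.3 CPM, overlapping with Young (log2 fold change of 0.19 with an SE of 0.16 and an adjusted p of 0.472).

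Among the transcription factors, Xbp1 and Atf4 gave means in Old close to those in Young. Xbp1 ranged from 115 to 169 CPM in Young (median 134) and was 119, 126, 125 and 154 CPM in Old (log2 fold change of -0.01 with an SE of 0.14 and an adjusted p of 0.966). Atf4 ranged from 103 to 141 CPM in Young (median 113) and was 131, 124, 118 and 143 CPM in Old (0.15, SE 0.12, adjusted p = 0.425). Neither gene separated the groups.

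Ddit3 encodes CHOP, the factor linked to cell death under lasting ER stress. Its Young libraries ranged from 22.4 to 29.3 CPM (median 24.8), and the Old libraries held 29.4, 32.6, 35.7 and 33.1 CPM. All 4 Old libraries thus lay above all 7 Young libraries, the lowest by a small margin. A separation of the groups in this direction was found for 3.69% of all genes, and for 2 members, Ddit3 and Asns. The log2 fold change of Ddit3 was 0.34 (SE 0.12), which did not pass over all genes (adjusted p = 0.0780). Of the alternatives run, only the fit of these groups alone passed it (0.36, adjusted p = 0.0339). Ddit3 overlaps Mars1, a tRNA synthetase gene, on the other strand, and the strand setting of the counting is not given in the sources used here. The log2 fold change of Mars1 itself was -0.00 (adjusted p = 0.986).

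Downstream of ATF4, Asns encodes asparagine synthetase, an enzyme of the amino acid response. It was scarce in Young, from 0.116 to 2.698 CPM with a median of 1.88 (2 to 84 reads per library). In Old it stood at 6.47, 3.87, 3.56 and 8.04 CPM (74 to 269 reads). Every Old library lay above every Young library, and the means were 5.48 ± 2.15 (SD, n = 4) and 1.58 ± 0.930 CPM (n = 7). This is a log2 fold change of 1.77 (SE 0.54, adjusted p = 0.0471).

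That call sits at the threshold. Leaving out libraries, 2 of 12 fits kept it, those without Young replicate 2 or 3, so each of the other Young and Old libraries decided it (adjusted p 0.0409 to 0.196). Without Old replicate 4 its log2 value was 1.53 (adjusted p = 0.196). Young libraries with M held 0.116 to 1.05 CPM and those without M 1.88 to 2.698 CPM, and no Old library carries M. Among libraries without M, Asns differed by a log2 value of 1.28 (adjusted p = 0.0558). Of the 18 libraries, the one with the most rod marker RNA, Old-Control replicate 2, had the highest Asns (13.6 CPM) and the one with the least, Young replicate 5, the lowest. Within Young the order differed: replicate 2, with a rod marker sum of 415 CPM, had the highest Asns of the group, and replicate 7, with a sum of 2581 CPM, had 0.844 CPM of Asns. A fit that held the rod marker score gave Asns 1.00 (adjusted p = 0.305). Whether rod RNA contributes to the Asns counts was not tested.

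Chac1 encodes an enzyme that breaks down glutathione and is a late target of ATF4 and CHOP. Within Young and within Old it varied more than any other member (coefficients of variation of 99.1% and 102%), from 0.787 to 16.1 CPM in Young (median 3.15) and at 4.60, 16.8, 7.25 and 46.1 CPM in Old. The highest value belonged to Old replicate 4, and 2 of the 4 Old libraries lay above all Young libraries. Its log2 fold change of 1.70, with an SE of 0.73, did not pass (adjusted p = 0.136). Without Old replicate 4 it was 0.72 (adjusted p = 0.660).

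Trib3, a pseudokinase induced by ATF4 and CHOP, ranged from 1.47 to 4.87 CPM in Young (median 3.01) and was 3.83, 3.03, 3.12 and 2.72 CPM in Old (log2 fold change of 0.01 with an SE of 0.33 and an adjusted p of 0.994). Sesn2, a leucine sensor that restrains the growth kinase mTORC1, ranged from 15.9 to 23.2 CPM in Young (median 17.6). In Old it was 20.3, 19.96, 20.8 and 14.2 CPM (0.02, SE 0.16, adjusted p = 0.944). Both genes overlapped between the groups. Young libraries with M held 19.3 to 23.2 CPM of Sesn2 and those without it 15.9 to 17.6, and no Old library carries M.

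**Figure D2:**
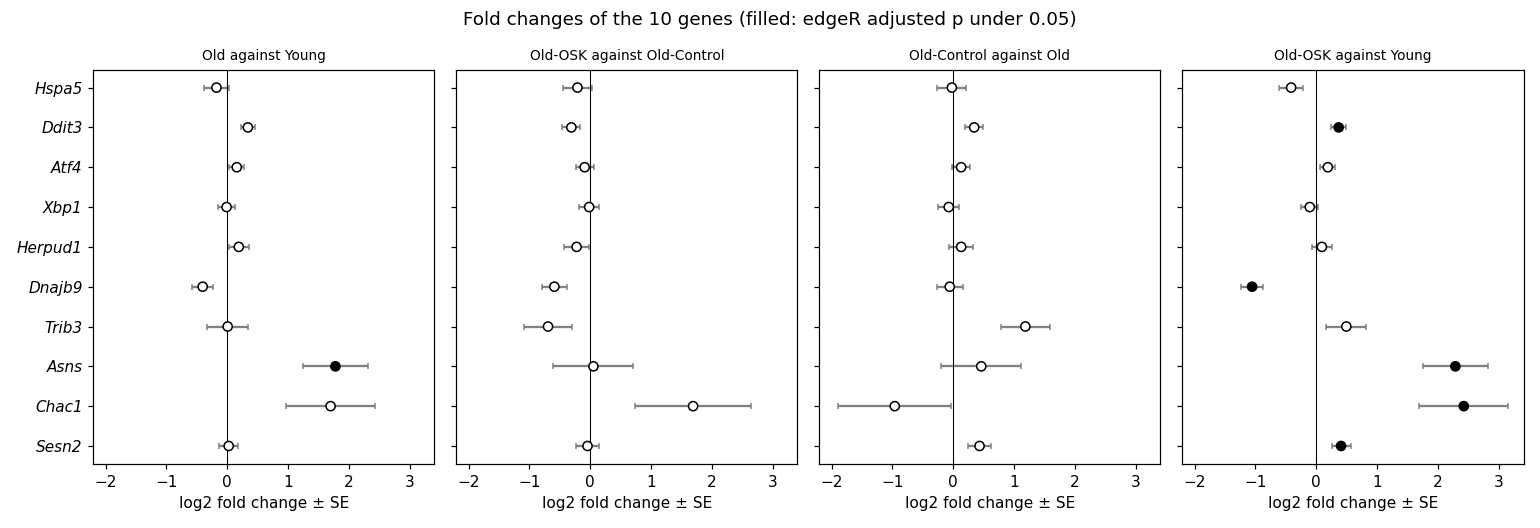
Log2 fold changes ± SE (x axis) of the 10 genes (y axis) in 4 comparisons of the same edgeR fit, filled where the adjusted p was under 0.05. Filled points are Asns in Old against Young and Ddit3, Dnajb9, Asns, Chac1 and Sesn2 in Old-OSK against Young, and none in the comparisons with Old-Control.

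Old-OSK was then set against Old-Control, which shares tTA but lacks the OSK genes. No member passed (116 of 15944 genes did, 0.728%). At an unadjusted p under 0.05 there were 2 members, Ddit3 and Dnajb9, both lower in Old-OSK, against 26.3% of all genes in either direction and 13% lower. DESeq2 also called 0 members. The median log2 fold change of the members was -0.15 and that of all genes -0.03. No member's groups were fully apart, which held for 12.4% of all genes.

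In the Old-OSK libraries Dnajb9 stood at 86.5, 63.6, 74.3 and 71.6 CPM, and in the Old-Control libraries at 150.4, 73.8 and 110.3 CPM. Old-Control replicate 2 alone lay inside the Old-OSK range. The difference was -0.59 on the log2 scale (SE 0.21, adjusted p = 0.107). It was -0.84 and passed once Old-Control replicate 2 was left out (adjusted p = 0.0119, in a fit where 17.9% of all genes passed), but -0.31 once Old-Control replicate 1 was (adjusted p = 0.486). Among libraries without M, where 1 Old-Control library is left and is taken to vary like the other groups, it was -1.01 (adjusted p = 0.0285, where 8.2% of all genes passed).

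Dnajb9 moved with the RPE marker level across libraries. The 6 libraries with a summed RPE marker level under 30000 CPM (the 4 of Old-OSK, Old replicate 4 and Old-Control replicate 2) held 63.6 to 92.1 CPM of Dnajb9, and the other 12 held 110.3 to 197 CPM. Within Old, Old-Control and Old-OSK the library with the lowest RPE marker sum was also the lowest for Dnajb9. Hspa5 did not separate in this way, with 471 to 721 CPM in the former and 557 to 1222 CPM in the latter. No library had an RPE marker sum between 29910 and 40406 CPM. The same 6 libraries also stood apart on the first principal component, which held 46.5% of the variance. They lay at 45.7 to 96.0 there and the others at no more than 21.8. The share of all genes that split these libraries in this way is not given here, so the split cannot be taken as particular to Dnajb9. What part the RPE marker level has in the Dnajb9 difference was not tested.

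**Figure D3:**
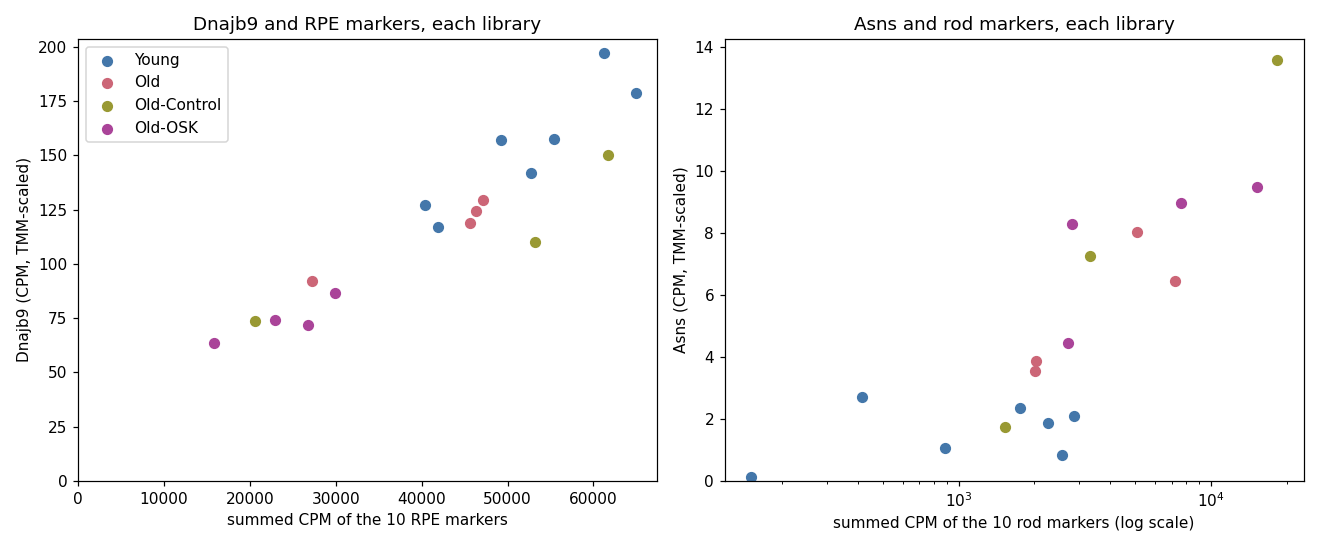
Left, Dnajb9 CPM (y axis) against the summed CPM of 10 RPE markers (x axis) in each of the 18 libraries; right, Asns CPM against the summed CPM of 10 rod markers (log x axis). The 6 libraries under 30000 CPM of RPE markers have Dnajb9 at 63.6 to 92.1 CPM, and the highest Asns value, 13.6 CPM, lies at the highest rod marker sum.

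Ddit3 in Old-OSK was 28.4, 31.3, 32.6 and 41.1 CPM against 50.9, 37.3 and 36.03 CPM in Old-Control. Of the 4 Old-OSK libraries, 3 lay below every Old-Control library and replicate 4 inside their range. This gave a log2 fold change of -0.31 (SE 0.15, adjusted p = 0.184). Among libraries without M, which keep only replicate 1 of Old-Control, the highest of all libraries for Ddit3, it was -0.73. It was -0.47 without Old-OSK replicate 4 (adjusted p = 0.0424, where 11% of all genes passed) and -0.14 without Old-Control replicate 1 (adjusted p = 0.684).

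Hspa5 in Old-OSK was 674, 608, 569.9 and 521 CPM, while Old-Control held 936, 471 and 654 CPM (log2 fold change of -0.21 with an SE of 0.24 and an adjusted p of 0.635). Herpud1 was 92.1, 73.5, 96.2 and 83.0 CPM against 135, 61.8 and 106 CPM (-0.23, SE 0.20, adjusted p = 0.515). In both genes Old-Control replicate 2 was the lowest of all 18 libraries and replicate 1 the highest of the old ones, so the Old-Control spread enclosed the Old-OSK values. Once Old-Control replicate 2 was left out, Herpud1 stood at -0.51 and passed (adjusted p = 0.0456, in a fit where 17.9% of all genes passed).

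Xbp1 was 138, 117, 133 and 103 CPM in Old-OSK against 155, 90.5 and 128 CPM in the control libraries. Atf4 was 138, 113, 118 and 158 CPM against 170.4, 141 and 111 CPM. Both overlapped widely. Their log2 fold changes were -0.02 (SE 0.17, adjusted p = 0.961) and -0.09 (SE 0.15, adjusted p = 0.758).

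Trib3 in Old-OSK was 3.78, 3.74, 3.91 and 6.33 CPM, while Old-Control held 12.1, 5.89 and 3.65 CPM (log2 fold change of -0.69 with an SE of 0.40 and an adjusted p of 0.283). Without Old-Control replicate 1, the highest library for Trib3, Ddit3, Atf4 and Herpud1 alike, the value was -0.10, and among libraries without M, which keep that library alone of Old-Control, -1.67 (adjusted p = 0.0582). Asns in Old-OSK was 4.45, 8.98, 8.29 and 9.49 CPM, beside 7.25, 13.6 and 1.75 CPM in the Old-Control libraries (0.05, SE 0.66, adjusted p = 0.975). Sesn2 was 22.6, 24.2, 26.8 and 24.5 CPM against 21.1, 19.6 and 35.3 CPM (-0.05, SE 0.19, adjusted p = 0.913).

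Chac1 again varied widely in Old-OSK, at 66.2, 26.5, 25.5 and 5.68 CPM, and less in Old-Control, at 8.99, 13.1 and 6.71 CPM. The Old-OSK libraries lay on both sides of Old-Control, 3 above and 1 below. A log2 fold change of 1.69 (SE 0.95) did not pass (adjusted p = 0.277). Without Old-OSK replicate 1 it was 0.95 (adjusted p = 0.604), and with M as a covariate 0.43 (adjusted p = 0.867). With the replicate number as a block it was 1.94 (adjusted p = 0.0570), and 2.03 in the same libraries unblocked (adjusted p = 0.0507). None of the 19 alternatives passed it, with values from 0.43 to 2.13.

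Old-Control was set against Old to examine the vector without OSK. No gene passed in this comparison (0% of 15944, with 3.74% at an unadjusted p under 0.05; DESeq2 also called 0 genes). Trib3 (log2 fold change 1.18, SE 0.40), Ddit3 (0.34, SE 0.15) and Sesn2 (0.43, SE 0.19) had positive values with an unadjusted p under 0.05 (2.4% of all genes did), and edgeR's adjusted p was 0.900 for each. All 3 Old-Control libraries lay above all 4 Old libraries for Ddit3, a separation found in 2.25% of all genes in that direction. For Trib3 this held for 2 of 3 libraries, and without Old-Control replicate 1 its log2 value was 0.59. Ddit3 stood at 0.17 without that library, and Sesn2 at 0.11 without Old-Control replicate 3. Among libraries without M, which keep only replicate 1 of Old-Control, the values were 1.93 for Trib3, 0.64 for Ddit3 and 0.17 for Sesn2. That library was the highest of all 18 for Trib3 and Ddit3. The remaining 7 members had log2 fold changes from -0.96 (Chac1) to 0.46 (Asns).

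Old-OSK was also set against Young, a comparison added after the data had been seen. It takes in age, vector and OSK together and shares the Young libraries with the age comparison. 5 of the 10 members passed, against 46.4% of all genes (25.1% higher and 21.4% lower), so the share of members is near the background. Dnajb9 was lower, from a mean of 154 ± 28.1 CPM (SD, n = 7) in Young to 74.0 ± 9.47 CPM (n = 4) in Old-OSK, with every Old-OSK library below every Young library (log2 fold change of -1.06 with an SE of 0.18 and an adjusted p of 0.000356). A complete separation downward was found in 15.6% of all genes. Dnajb9 passed under all 23 alternatives run for this comparison, with log2 fold changes from -1.16 to -0.86. The 2 groups' RPE marker sums do not overlap, as given above.

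Higher in Old-OSK than in Young were Asns (log2 fold change of 2.28 with an SE of 0.54 and an adjusted p of 0.00305), Chac1 (2.42, SE 0.73, adjusted p = 0.0132), Ddit3 (0.37, SE 0.12, adjusted p = 0.0193) and Sesn2 (0.41, SE 0.16, adjusted p = 0.0420). For Asns all 4 Old-OSK libraries lay above the Young range (12.6% of all genes separated so), and for each of the other 3 genes 3 of 4 did. Chac1 passed in 19 of the 23 alternatives and Ddit3 in 21. Among the losses were Chac1 without Old-OSK replicate 1 (1.68, adjusted p = 0.0855) and Ddit3 without Old-OSK replicate 4 (0.22, adjusted p = 0.137). Sesn2 kept its call in 3 of the 12 fits without libraries (without Young replicate 6, without Young replicate 7, and without Old replicate 4 and Old-Control replicate 2 together), and DESeq2 called 4 of the 10 members. In the fit with the rod marker score, Asns (1.28, adjusted p = 0.112), Ddit3 (adjusted p = 0.107) and Chac1 (adjusted p = 0.0708) did not pass, and what part rod RNA has in these differences was not tested. Hspa5 (-0.41), Atf4 (0.19), Xbp1 (-0.11), Herpud1 (0.09) and Trib3 (0.49) did not pass, with adjusted p-values of 0.0989 to 0.683.

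The wider pathways were described with 9 lists of 119 genes, members left out, of which 117 were tested. In Old against Young 8 of them passed, which is 6.84% against 9.56% of all genes. Of these, 1 was higher and 7 were lower. The median log2 fold change over the 117 was -0.10, and 81 were negative, beside a median of -0.00 over all genes.

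The stress-induced transcription factor gene Atf3 was the 1 that rose. It ranged from 0.347 to 3.83 CPM in Young and from 4.41 to 11.0 CPM in Old, with no overlap, and the log2 fold change was 2.35 (SE 0.47, adjusted p = 0.00695). Atf3 kept its call in all 12 fits without libraries (adjusted p 0.00229 to 0.0320) and in 9 of the 11 other settings. It lost the call in the 2 fits limited to replicates with the same number in both groups (1.95, adjusted p = 0.0747 unblocked). It is also an early response gene, and the summed CPM of 11 immediate early genes (Fos, Egr1, Jun and others) had a median of 123 in Young and 266 in Old. Young replicate 7 held 368 and the other 6 Young libraries 68.8 to 166, while the Old libraries held 99.8, 308, 224 and 369.8. Unlike Atf3, this sum overlapped between Young and Old. Its median was 136 in Old-Control and 360 in Old-OSK. Whether an early response had a part in the Atf3 difference was not tested. Atf3 was 8.46 ± 5.42 CPM in Old-Control (SD, n = 3) and 11.6 ± 4.09 CPM in Old-OSK (n = 4). Nupr1, Cebpb, Cebpg and Atf5, the other factors of that list, did not pass.

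The 7 genes that fell were Mbtps2, Sec24d, Erlec1, Edem3, Ssr1, Herpud2 and Vldlr. Mbtps2, the site-2 protease that releases ATF6, fell from 61.3 ± 5.54 to 44.3 ± 4.71 CPM (log2 fold change of -0.47 with an SE of 0.12 and an adjusted p of 0.0233). Its groups were apart, as were those of 7 of the 117 pathway genes in this direction, Mbtps2 included. The share of all genes apart in this direction is not given here, so that number cannot be set against the background. ERAD and translocation genes that fell were Sec24d (-0.38, adjusted p = 0.0210), Erlec1 (-0.40, adjusted p = 0.0246), Edem3 (-0.32, adjusted p = 0.0313) and Ssr1 (-0.34, adjusted p = 0.0478). Sec24d encodes a coat protein of vesicles leaving the ER, while Erlec1 and Edem3 act on glycoproteins bound for degradation. These are 4 of the 25 genes of that list, whose median was -0.13. Herpud2, the paralog of Herpud1, fell by 0.28 on the log2 scale (adjusted p = 0.0463). Vldlr fell by 0.52 (adjusted p = 0.0353). Vldlr encodes a lipoprotein receptor. Of the 12 fits without libraries, Sec24d kept its call in 10 (lost without Old replicate 2 or 3), Mbtps2 in 9 (lost without Old replicate 2 or 4 or Young replicate 5), Erlec1 in 7, Edem3 in 4, Vldlr in 3, and Herpud2 and Ssr1 in 2 each. All 7 lost their calls in the fit with the rod score (3% of all genes passed there, against 9.56%) and among libraries without M (2.71%), and with M as a covariate Mbtps2 and Edem3 kept theirs (3.76%). Without Old replicate 4, the Old library with the fewest RPE marker counts, Mbtps2 stood at -0.40 (adjusted p = 0.113) and Erlec1 at -0.31 (adjusted p = 0.117). The RPE marker sum was 27252 to 47095 CPM in Old beside 40406 to 64909 CPM in Young, and its part in these differences was not tested.

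None of the 20 ER chaperones and folding enzymes passed in edgeR in the age comparison (5 had an unadjusted p under 0.05, all lower). Their median log2 fold change was -0.18 and 16 of 20 were negative, with Dnajc10 (-0.23, adjusted p = 0.0501) and Canx (-0.33, adjusted p = 0.0503) closest to the threshold, and DESeq2 called those 2. Among the 10 eIF2 subunit and phosphatase genes, the 19 genes of amino acid synthesis and transport and the 13 tRNA synthetase and export genes, 0 passed as well. Each of these 3 lists had 1 gene at an unadjusted p under 0.05: Eif2s1 (0.29), Slc1a4 (0.95) and Xpot (-0.24). DESeq2 also called 0 genes in them. Many genes of the amino acid and tRNA lists are known ATF4 targets, as Asns is.

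**Figure D4:**
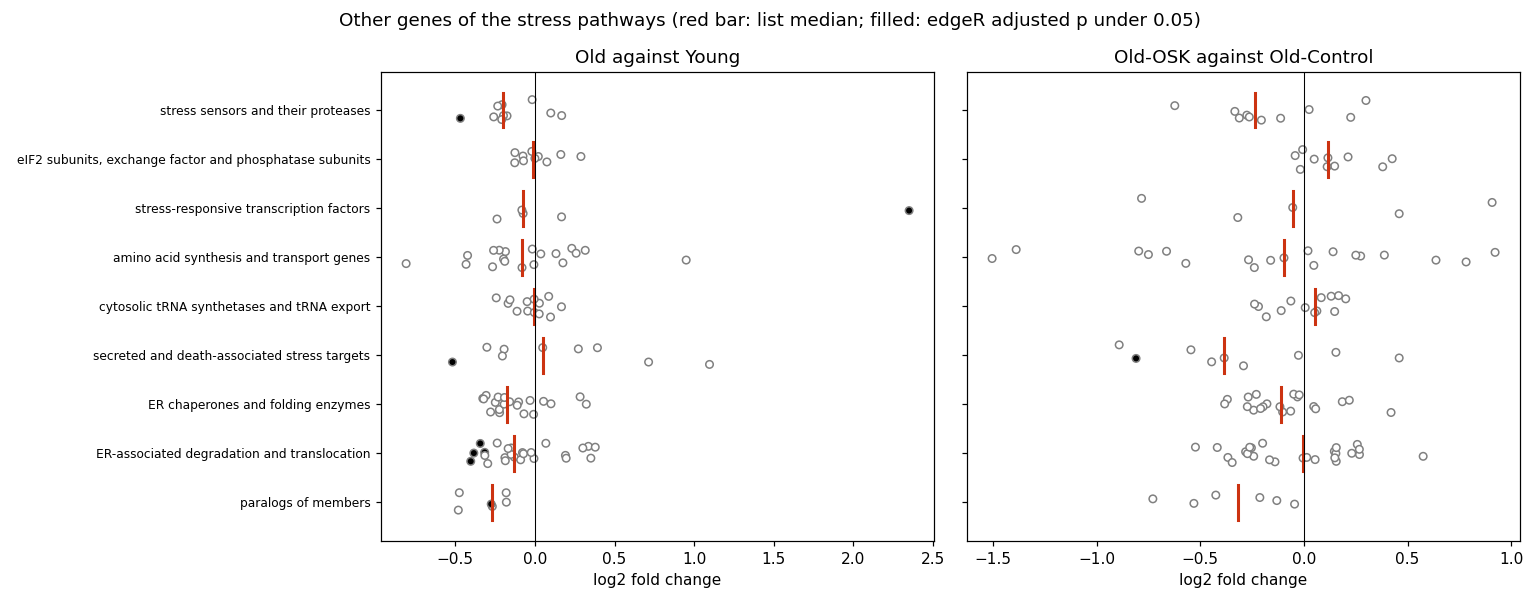
Log2 fold changes (x axis) of the pathway genes in 9 lists (y axis), in Old against Young (left) and Old-OSK against Old-Control (right), with the list median as a red bar and genes that passed filled. Atf3 lies alone at 2.35 in the age panel, where the median of the ER chaperone list is -0.18, and the single filled point on the right is Vldlr.

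In Old-OSK against Old-Control, 1 of the 117 genes passed, 0.855% beside 0.728% of all genes. That gene was Vldlr, a receptor gene induced by the PERK arm, at 191 ± 23.3 CPM in Old-Control (SD, n = 3) and 109 ± 18.7 CPM in Old-OSK (n = 4). The groups were apart and the log2 fold change was -0.81 (SE 0.17, adjusted p = 0.0342). The call was lost in 5 of the 8 fits without libraries (without Old-Control replicate 1 or 3, or Old-OSK replicate 1, 2 or 3), and DESeq2 called 7 pathway genes, Vldlr among them. Of the genes that did not pass, Sesn3, a paralog of Sesn2 (-0.73, adjusted p = 0.0722), Erlec1 (-0.42, adjusted p = 0.0796), Rtcb, the ligase that joins the Xbp1 exons (0.30, adjusted p = 0.0805), and the disulfide isomerase gene P4hb (0.42, adjusted p = 0.0901) had the lowest p in their lists. Without Old-Control replicate 2, 28 of 117 pathway genes passed (23.9%), in a fit where 17.9% of all genes did, among them Sesn3 (-0.98), Erlec1 (-0.54), Eif2s1 (0.52) and Rtcb (0.36).

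No pathway gene passed in Old-Control against Old in edgeR or DESeq2 (3 had an unadjusted p under 0.05), where Gdf15, a secreted stress cytokine gene, had the lowest p. It was 5.45 ± 1.34 CPM in Old-Control and 2.72 ± 0.774 CPM in Old with the groups apart (log2 fold change 1.00, SE 0.25, unadjusted p = 0.000944, adjusted p = 0.900 in edgeR).

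Between Old-OSK and Young, 60 of 117 pathway genes passed (51.3%, beside 46.4% of all genes), 21 higher and 39 lower. Of the 20 ER chaperone genes 9 passed (45%, near the share of all genes), 8 of them lower, among them Ero1lb (-0.71, adjusted p = 0.00162), Canx (-0.49, adjusted p = 0.00142) and Hspa13 (-0.49, adjusted p = 0.00200). Of the 10 sensor and protease genes 8 passed (80%), of which 7 were lower, with Mbtps2 (-0.82) and Atf6 (-0.40) among them, and Rtcb was higher (0.37). Of the 19 genes of amino acid synthesis and transport 8 passed (42.1%), 3 higher (Slc1a4, Gpt2 and Shmt2) and 5 lower, among these the serine synthesis gene Phgdh (-1.10) and the glycine transporter gene Slc6a9 (-1.13), both known ATF4 targets. Of the 13 tRNA synthetase and export genes 7 passed (53.8%), 5 higher (among them Tars at 0.41 and Gars at 0.37) and 2 lower (among them Xpot at -0.53). The transcription factor genes Atf3 (2.82) and Nupr1 (1.66) were higher, and so were the cell death genes Bbc3 (1.599) and Pmaip1 (1.52), at means of 3.86 and 1.17 CPM in Old-OSK. The paralogs Sesn3 (-1.18), Chac2 (-1.06) and Herpud2 (-0.49) were lower, whereas Sesn2 and Chac1 were higher.

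Within groups, 2 sets of members varied together most closely, without being separate from each other. Pearson's r was computed on deviations of log2 CPM from the 4 group means over the 18 libraries, which share their preparation and differ in depth, and is given as a description. Of the 45 pairs 29 were positive, with a median r of 0.29. The ER chaperone genes and Xbp1 went together: Hspa5 with Xbp1 (r = 0.88) and with Dnajb9 (0.83), and Dnajb9 with Herpud1 (0.72). Ddit3, Atf4 and Trib3 formed another set, with r = 0.74 for Ddit3 and Trib3, 0.73 for Atf4 and Trib3 and 0.64 for Ddit3 and Atf4. All 12 pairs across the sets were positive too, from 0.27 to 0.54 (Dnajb9 with Trib3, r = 0.54, and Hspa5 with Ddit3, 0.53), and the highest of them reached that of Hspa5 with Herpud1 within the ER set (0.54). The targets Asns, Chac1 and Sesn2 did not follow Atf4 (r = 0.27, -0.18 and -0.46), and the lowest pair was Asns with Sesn2 at -0.63.

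**Figure D5:**
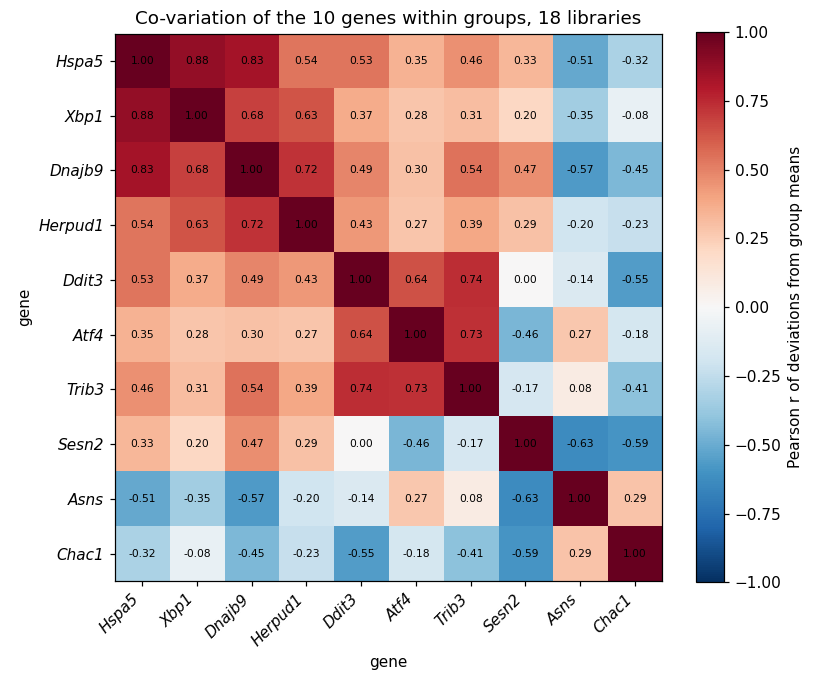
Pearson's r between each pair of the 10 genes (both axes), from deviations of log2 CPM from the group means over 18 libraries, with the colour scale from -1 to 1. Hspa5, Xbp1, Dnajb9 and Herpud1 form a block with r from 0.54 to 0.88, and Ddit3, Atf4 and Trib3 a block with r from 0.64 to 0.74, while pairs between the blocks reach 0.54.

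The genes whose deviations were most like those of each member, among 10232 genes of at least a mean log2 CPM of 3, included other ER genes for Hspa5, Xbp1 and Dnajb9. They were Calr (r = 0.95) and Pdia4 (0.94) for Hspa5, Ppp1r15a (0.93) and Pdia6 (0.90) for Xbp1, and Ero1lb (0.97) and Zrsr2 (0.97) for Dnajb9. Calr, Pdia4 and Pdia6 encode a lectin-like chaperone and a pair of disulfide isomerases of the ER, and Ppp1r15a encodes the subunit that directs dephosphorylation of eIF2. For the ATF4 arm the nearest genes were Thg1l (0.87) and H2aw (0.83) for Ddit3, Mmd (0.80) and Prmt6 (0.79) for Atf4, Bmi1 (0.88) and Tfrc (0.87) for Trib3, and St8sia1 (0.90) and Dusp8 (0.89) for Asns. Herpud1 was closest to Wdr91 (0.93) and Gab2 (0.92), Chac1 to Prss22 (0.96) and Plekhs1 (0.95), and Sesn2 to Nfic (0.91) and Plbd2 (0.91).

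Single libraries stood at the ends of several genes. Young replicate 7 was the highest library for Hspa5, Xbp1 and Dnajb9. Old-Control replicate 1 was the highest for Ddit3, Atf4, Herpud1 and Trib3. Old-Control replicate 2 was the lowest for Hspa5, Xbp1 and Herpud1 and the highest for Asns, and it also had the highest rod marker sum. What part rod RNA has in these values was not tested.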

How the data were processed

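PolyA RNA of mouse RPE was extracted with TRIzol, amplified with SMART-Seq v4 and made into Nextera XT libraries without molecular identifiers, per the labels' protocols. The authors deposited raw counts per gene for all 18 libraries. The submitters' processing notes name STAR 2.7.1a, featureCounts 1.6.2 and the builds GRCm38/mm10 and GRCh38/hg38. The annotation and strand setting are not given in the sources used here.

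Titles tied each of the 18 columns to its library. Counts were filtered with filterByExpr (minimum count 10, minimum total 15; 15944 rows left), scaled by TMM and fitted with 4 group means in edgeR 4.0.16 (R 4.3.3) by the quasi-likelihood test, with Benjamini-Hochberg adjustment over all rows tested. A gene is called, or passes, at an adjusted p under 0.05. SEs are the log2 fold change over the root of F, and CPM values are TMM-scaled. The code was tested on simulated data. Since reads were PCR-amplified, the true error exceeds counting error.

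The members and gene lists were chosen with earlier results of these data known. Named pathway genes are, per list and comparison, up to 3 called genes with the lowest p, or the 1 with the lowest p where none was called. Mars1, Canx and Ssr1 in the age comparison, and genes named without a value, were chosen after their values were seen. Levels per kb use exon unions of GENCODE M21 (GRCm38), and promoters come from RefSeq GRCm38.p6. The table holds a second Ddit3 row with 0 counts in every library, which was left out.

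Chi-square per gene was at least 21.2 between any 2 libraries of a group, far above sampling noise, so none was merged. For Old-OSK and Old-Control, libraries with the same number deviated together at r = 0.10, 0.42 and 0.34, all over 0.1. In each other comparison at least 1 such pair did not. The reported fit does not pair libraries in any comparison, and the replicate block was run only as an alternative. Alternatives were median-ratio size factors, no filter, a mean of at least 50 counts, robust empirical Bayes, DESeq2 1.42.0, M or the rod marker score as a covariate, libraries without M, the compared groups alone, the replicate block, and leaving out libraries. Leaving out Old replicate 4 together with Old-Control replicate 2, and all of Old-OSK against Young, were added after the data had been seen.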

Additional observations from a re-analysis of the deposited data

Results flagged for a closer look

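In each group of 4 or 7 libraries, the highest and the lowest value of every member were compared with Dixon's 95% critical value (30 groups of values, 3 past it, where chance passes about 1 in 20). Herpud1 in Young replicate 4 stood at 106.2 CPM, and the next highest Young library at 84.2 CPM (gap over range 0.66, critical value 0.568). Trib3 in Old-OSK replicate 4, a library with M in its name and the highest rod marker sum of its group, stood at 6.33 CPM with the next at 3.91 CPM (0.934, critical value 0.829). Sesn2 in Old replicate 4 was low, at 14.2 CPM with the next at 19.96 CPM (0.873, critical value 0.829). Old replicate 4 is the Old library with the lowest RPE marker sum and the highest Chac1.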

How the results depend on the processing

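Called members in Old against Young were 1 in the reported fit, 2 with these groups alone, and 0 with no low-count filter, with a mean of at least 50 counts, with M or the rod score as a covariate, among libraries without M, with the replicate block and in the paired libraries unblocked, and 0 to 1 without a library. Called pathway genes there were 8, or 6.84% beside 9.56% of all genes, against 4 with no filter (3.36% beside 5.54%), 5 at a mean of 50 counts (4.42% beside 8.42%), 3 with M (2.56% beside 3.76%), 1 with the rod score (0.855% beside 3%), 1 among libraries without M (0.84% beside 2.71%), 0 with the replicate block (0% of all genes), 0 in the paired libraries unblocked (1.26% of all genes), and 2 to 13 without a library (1.71% to 11.1%, beside 2.47% to 13.4%). With the replicate block Atf3 stood at 2.01 (adjusted p = 0.220). In Old-OSK against Old-Control, called members were 0, 2 among libraries without M and 0 to 2 without a library. Called pathway genes there were 1, against 0 with median-ratio size factors, with no filter, with M and with the groups alone (0.0129% to 0.583% of all genes), 7 with DESeq2 (5.98% beside 10.2%), 11 among libraries without M (9.24% beside 8.2%), 3 in the paired libraries unblocked (2.56% beside 6.49%), and 0 to 33 without a library (0% to 28.2%, beside 0.0804% to 23.3%). In Old-OSK against Young, called members were 5 and 2 with the rod score, and 3 to 5 without a library, while called pathway genes were 60 and 35 with the rod score (29.9% beside 27.6%). Neither count moved in Old-Control against Old. The cause of these differences was not tested. The replicate block moved no other count of members or pathway genes by over 1.5 times. Every value that changed sign belongs to a difference that was not called in the reported fit, given here as log2 fold changes. In Old against Young, Xbp1 (-0.01 as reported) was 0.020 at a mean of 50 counts, 0.051 with the rod score, 0.10 among libraries without M, 0.0078 with the groups alone, 0.10 with the replicate block and 0.10 in the paired libraries unblocked. Trib3 was -0.020 with M and -0.23 with the rod score, and Hspa5 was 0.085 among libraries without M, 0.099 with the replicate block and 0.089 in the paired libraries unblocked. Without a library the values ran from -0.030 to 0.15 for Sesn2, from -0.12 to 0.14 for Trib3 and from -0.099 to 0.053 for Xbp1. In Old-OSK against Old-Control, Asns was -0.20 with M, -0.0042 among libraries without M and -0.060 in the paired libraries unblocked. Sesn2 was 0.081 with M, 0.22 among libraries without M and 0.00065 with the replicate block, and Xbp1 was 0.083 with the block and 0.053 unblocked. Without a library the values ran from -0.45 to 0.077 for Hspa5, -0.24 to 0.067 for Atf4, -0.23 to 0.17 for Xbp1, -0.51 to 0.037 for Herpud1, -0.42 to 0.77 for Asns and -0.23 to 0.27 for Sesn2. In Old-Control against Old, Chac1 was 0.46 with M, 0.14 with the replicate block and 0.0066 unblocked, Herpud1 was -0.0070 with the block and Xbp1 0.0015 unblocked. Among libraries without M, which keep only replicate 1 of Old-Control, Hspa5 was 0.42, Xbp1 0.24, Dnajb9 0.37, Ppp1r15b 0.019 and Trib2 -0.082. Without a library the values ran from -0.31 to 0.20 for Hspa5, -0.26 to 0.19 for Xbp1, -1.28 to 0.012 for Chac1, -0.034 to 0.27 for Atf4, -0.13 to 0.39 for Herpud1, -0.34 to 0.17 for Dnajb9, -0.28 to 0.93 for Asns, -0.23 to 1.05 for Trib2 and -0.32 to 0.062 for Eif2ak2. In Old-OSK against Young, Xbp1 was 0.076 among libraries without M. Depth limits Asns most, with 2 reads in 1 Young library.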
